A study of Mus musculus with 4 samples.

Results

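The genes described here encode the extracellular matrix, the proteases that cut it and cell-surface proteins, and the inhibitors of those proteases, as transcribed by mouse CD4+ T cells. A gene was a member when its symbol carried the name of a collagen, laminin, fibulin, lysyl oxidase, TIMP, MMP, ADAM, ADAMTS, serpin, urokinase-system or stefin family, or was 1 of 9 single names. Of 11027 genes listed, 64 met the rule: 57 by name pattern and 7 by single name (Spp1, Crispld2, Tgm2, Ecm1, Fn1, Cst7 and Furin), while Vcan and Sparc were not analysed here. By name alone they were sorted into 24 genes of the matrix side, 25 of proteases with the urokinase receptor, and 15 inhibitors. Whether each product acts as its family name says was not tested. The name pattern also took Col4a3bp, which encodes a ceramide transfer protein and no collagen. Counts for the collagens and the matrix side include Col4a3bp. The single names were picked with results of these libraries known, so the counts of calls over all members are also given for the name pattern alone.

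RNA-seq was made from naive CD4+ T cells of spleen and lymph nodes of wild-type C57BL/6 mice aged 7 to 8 weeks. All cells were first activated and infected with a retrovirus in neutral conditions, and GFP-positive cells were sorted before they were cultured. The 4 groups were the Tfh-like culture with the Tox2 virus, the Tfh-like culture with the GFP-only virus, the Th0 culture with the Tox2 virus and the Th0 culture with the GFP-only virus. Blocking antibodies against IFN-gamma, against IL-4 and against IL-2 were present in both cultures. The Tfh-like culture, named for T follicular helper cells, held IL-6 in addition, whose receptor activates STAT3. The Tox2 virus carries, beside GFP, the gene of the HMG-box DNA-binding protein Tox2. The study asked how Tox2 acts on Tfh differentiation. Each group is 1 library, so no spread between replicates, cultures or animals was measured.

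The extracellular matrix is a mesh of collagens, laminins, fibronectin and associated glycoproteins that cells lay down, hold on to through integrins and syndecans, and remodel. Metalloproteinases of the MMP, ADAM and ADAMTS families cut matrix or shed cell-surface proteins, and TIMPs block them. Many serpins trap serine proteases, inside the cell or in the fluid around it, and cystatins and stefins block cysteine proteases such as cathepsins. T cells are not major builders of matrix, but activated T cells are known to make osteopontin (Spp1), to shed surface receptors with ADAM10 and ADAM17, and to guard themselves with intracellular serpins against granule proteases.

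Total counts ran between 13015283 and 13673774 per library. Tox2 itself had 32246 counts in Tfh-like with Tox2 and 851 with GFP, and 35297 in Th0 with Tox2 and 144 with GFP, which follows the labels. The 8 CD4+ T-cell markers all had values, with a summed level of 5080 CPM (counts scaled to library size by TMM) in Tfh-like with Tox2 and 4802 with GFP, against 4850 in Th0 with Tox2 and 4703 with GFP. Of 8 fibroblast markers, 3 had values (Lum, Pdgfrb and Col1a1, itself a member). Their summed level was 28.9 CPM in Tfh-like with Tox2 and 42.6 with GFP, against 10.3 in Th0 with Tox2 and 12.5 with GFP. Lum, a matrix proteoglycan of connective tissue, had 134 and 308 counts in Tfh-like with Tox2 and GFP, against 2 and 10 in Th0. Pdgfrb had 87 and 72 counts in Tfh-like with Tox2 and GFP, against 71 and 87 in Th0, while Dcn, Pdgfra, Col1a2, Col3a1 and Postn were not analysed here. Myeloid markers (3 of 11 with values) summed to 14.3 and 8.27 CPM in Tfh-like with Tox2 and GFP, against 12.5 and 10.3 in Th0. Of 6 B-cell markers, Cd79a and Ebf1 had values, and their sum was 29.7 and 29.9 CPM in Tfh-like with Tox2 and GFP, against 10.2 and 2.9 in Th0. Ebf1 had 385 and 380 counts in Tfh-like with Tox2 and GFP, against 118 and 20 in Th0. Cd79a went the other way, with 13 and 10 counts in Tfh-like with Tox2 and GFP, against 24 and 19 in Th0. In Tfh-like nearly all of the sum was Ebf1. The fibroblast and B-cell sums moved with the culture as many matrix members did, through Lum, Col1a1 and Ebf1 but not through Pdgfrb or Cd79a. The part of such cells in those results was not tested. In a bulk sample, fewer cells of a type and less RNA per cell cannot be told apart.

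The promoters of 7 members are shown because these genes carry the 2 highest and the lowest culture folds or were 2-fold apart with Tox2 in the same direction in both cultures, among members with a RefSeq promoter entry. Each is the 300 bases running from 250 before to 50 after the annotated start, 5′ to 3′ on the gene's own strand, from RefSeq on GRCm38.p6. The windows are chr8:119992188-119992487 (plus strand) for Crispld2, chrX:20869916-20870215 (plus) for Timp1, chr16:36455343-36455642 (minus) for Stfa3, chr9:20815018-20815317 (minus) for Col5a3, chr9:108479612-108479911 (plus) for Lamb2, chr7:24462233-24462532 (plus) for Plaur and chr5:104434861-104435160 (plus) for Spp1. Capitals mark every match to TTCNNNGAA, the palindrome known for STAT proteins, or to TGANTCA, the palindrome known for AP-1 proteins. Both read the same on either strand, and no window shown holds both.
Crispld2: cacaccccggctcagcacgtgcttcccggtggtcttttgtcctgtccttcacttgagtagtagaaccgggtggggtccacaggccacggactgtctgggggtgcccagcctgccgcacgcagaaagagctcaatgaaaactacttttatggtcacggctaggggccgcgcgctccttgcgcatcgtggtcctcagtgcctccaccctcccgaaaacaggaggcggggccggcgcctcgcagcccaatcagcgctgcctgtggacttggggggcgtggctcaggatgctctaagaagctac
Timp1: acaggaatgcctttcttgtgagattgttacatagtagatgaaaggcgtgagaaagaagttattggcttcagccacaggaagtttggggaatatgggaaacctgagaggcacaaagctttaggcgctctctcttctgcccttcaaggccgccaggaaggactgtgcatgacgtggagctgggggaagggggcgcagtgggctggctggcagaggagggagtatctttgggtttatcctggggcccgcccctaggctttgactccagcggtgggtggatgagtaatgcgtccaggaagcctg
Stfa3: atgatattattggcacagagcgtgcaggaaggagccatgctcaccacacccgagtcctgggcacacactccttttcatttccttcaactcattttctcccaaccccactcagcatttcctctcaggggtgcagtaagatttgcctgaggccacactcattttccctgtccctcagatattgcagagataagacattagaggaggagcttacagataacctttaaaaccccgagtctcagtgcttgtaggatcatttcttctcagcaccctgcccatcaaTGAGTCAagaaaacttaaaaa
Col5a3: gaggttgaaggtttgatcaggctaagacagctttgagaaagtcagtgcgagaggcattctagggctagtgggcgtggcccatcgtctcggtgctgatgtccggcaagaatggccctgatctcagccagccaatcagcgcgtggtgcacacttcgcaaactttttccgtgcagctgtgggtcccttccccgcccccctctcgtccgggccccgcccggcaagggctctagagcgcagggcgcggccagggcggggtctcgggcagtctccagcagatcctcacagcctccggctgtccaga
Lamb2: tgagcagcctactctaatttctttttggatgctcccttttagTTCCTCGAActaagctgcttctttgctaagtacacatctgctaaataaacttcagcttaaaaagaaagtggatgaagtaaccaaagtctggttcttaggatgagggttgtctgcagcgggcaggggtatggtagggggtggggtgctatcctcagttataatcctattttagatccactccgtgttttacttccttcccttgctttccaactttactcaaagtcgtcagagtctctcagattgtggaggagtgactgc
Plaur: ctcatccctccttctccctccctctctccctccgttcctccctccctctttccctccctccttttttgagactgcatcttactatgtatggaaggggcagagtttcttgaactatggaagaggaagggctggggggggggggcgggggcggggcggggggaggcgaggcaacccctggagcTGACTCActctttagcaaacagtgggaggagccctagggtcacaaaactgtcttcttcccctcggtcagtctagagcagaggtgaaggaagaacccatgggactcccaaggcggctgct
Spp1: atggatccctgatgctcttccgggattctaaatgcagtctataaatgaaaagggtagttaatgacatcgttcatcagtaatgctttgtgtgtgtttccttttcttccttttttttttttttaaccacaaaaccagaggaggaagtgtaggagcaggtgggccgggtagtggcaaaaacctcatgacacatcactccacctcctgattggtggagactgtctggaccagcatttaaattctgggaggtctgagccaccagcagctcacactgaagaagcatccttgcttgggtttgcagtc

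A match to TTCNNNGAA stood 208 bases before the start of Lamb2, and matches to TGANTCA stood 69 bases before the start of Plaur and 29 bases after that of Stfa3. The other 4 windows held neither. Of the 64 members, 43 had a window (52 windows). TTCNNNGAA was found in 5 of the 52 windows, against 8.3% of all 32851 windows of that length, and TGANTCA in 6 of the 52, against 7.81%. The members with TTCNNNGAA were Lamb2, Mmp23, Serpina3g and Serpinb6a, and those with TGANTCA were Adam19, Col6a1, Cst7, Ecm1, Plaur and Stfa3. These are matches of letters and say nothing of binding.

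Levels of different genes were compared in FPKM, the authors' deposited fragment count scaled by gene length and library size. In Tfh-like with Tox2, 43 of the 64 members reached 1 FPKM and 17 reached 10 FPKM. The same 2 counts were 43 and 17 in Tfh-like with GFP, then 31 and 11 in Th0 with Tox2, and 32 and 10 with GFP. In each library the highest member was an inhibitor, and in both Th0 libraries the protease gene Adam10 came next. Cst7, encoding cystatin F, a cathepsin inhibitor of lymphocytes, had 100 FPKM in Tfh-like with Tox2 and 144 with GFP, against 60.6 in Th0 with Tox2 and 108 with GFP. It was the highest member in 3 libraries, and in Tfh-like with GFP it stood second to Timp1 at 189 FPKM. Among the proteases Adam10, the sheddase that cleaves Notch, led in 3 libraries at 31.5 FPKM in Tfh-like with Tox2, 48.2 in Th0 with Tox2 and 43.8 in Th0 with GFP. Its level of 25 FPKM in Tfh-like with GFP was below that of Adam19, at 29.1. The convertase gene Furin, whose product activates many proproteins, lay between 12.1 and 15.4 FPKM, and Adam17, the sheddase of TNF and L-selectin, between 10.7 and 13.6.

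All members together took 0.27% of counts in Tfh-like with Tox2 and 0.338% with GFP, against 0.179% in Th0 with Tox2 and 0.188% with GFP. The matrix side summed to 866 CPM in Tfh-like with Tox2 and 1252 with GFP, against 377 in Th0 with Tox2 and 371 with GFP. The inhibitors summed to 869 CPM in Tfh-like with Tox2 and 1242 with GFP, against 485 in Th0 with Tox2 and 608 with GFP. The proteases varied least, at 999 CPM in Tfh-like with Tox2, 1011 with GFP, 896 in Th0 with Tox2 and 846 with GFP. Within the Tfh-like culture the matrix and inhibitor sums were thus lower with Tox2 than with GFP. Both sums include singly named genes, picked with results known, and no sum by name pattern alone was made. Of the matrix sum, the singly named Tgm2 alone made up 152 CPM in Tfh-like with Tox2 and 340 with GFP.

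**Figure D1:**
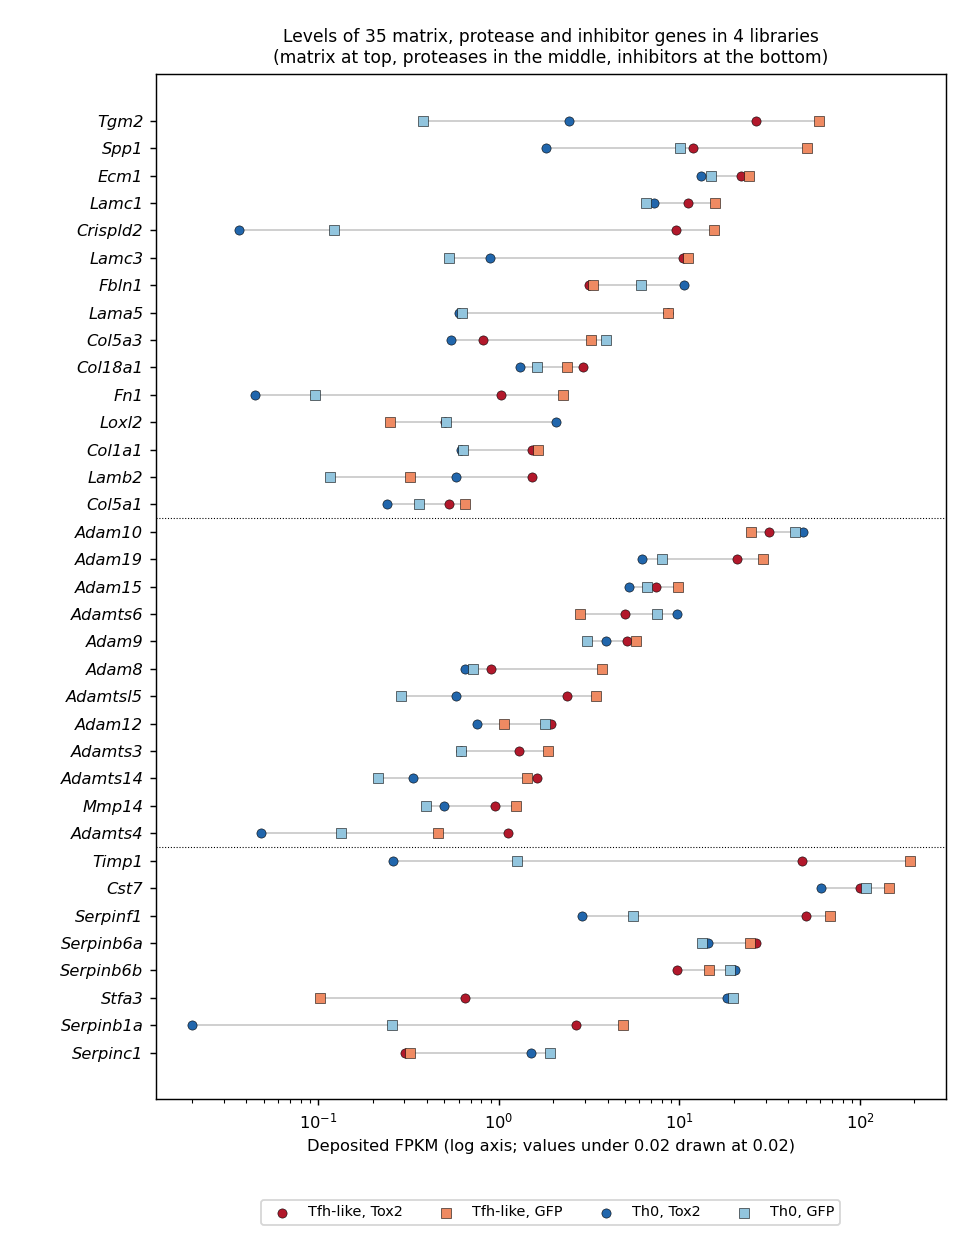
Deposited FPKM (log axis) of 35 of the 37 members that passed either test or were 2-fold apart in some pair at a level of 5 CPM or more, 1 point per library, with no replicates. Timp1, Crispld2, Tgm2, Fn1 and Serpinb1a span the widest ranges with the Tfh-like libraries high, Stfa3 spans one with the Th0 libraries high, and Cst7 and Adam10 lie close together in all 4; the 0 of Serpinb1a in Th0 with Tox2 is drawn at 0.02.

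The first comparison was the Tfh-like against the Th0 culture over both viruses. Of 24 matrix genes tested 13 rose in the Tfh-like cells and 2 fell, with all 5 singly named ones among those that rose. Timp1, Crispld2, fibronectin and transglutaminase 2 stood at many times their Th0 levels. Stfa3, Serpinc1, Loxl2 and Fbln1 were the members that went furthest the other way. In a model with terms for culture and virus fitted to all genes (edgeR's quasi-likelihood test, Benjamini-Hochberg adjusted p under 0.05), 29 of the 63 members tested rose and 7 fell, where 14.3% of all 10960 genes tested rose and 9.96% fell. By name pattern 23 of 56 rose and 7 fell, and of the single names 6 of 7 rose, all but Furin. The median log2 fold was 0.49 over the members and -0.01 over all genes. The only spread this test can use is how far the Tox2 folds of a gene differ between the cultures (1 residual degree of freedom, moderated across genes), so its p-values speak of these 4 libraries only. The gene tables had been reduced to genes above a low level in at least 2 libraries, so a member high in the Tfh-like pair alone is listed while one silent everywhere is not, and the count describes listed members only. In single pairs of libraries, 23 members were 2-fold higher and 5 lower in Tfh-like with Tox2 than in Th0 with Tox2 (6.56% and 2.86% of all genes). With GFP in both cultures the counts were 22 higher and 5 lower (7.78% and 3.11%). Here 2-fold apart means a log2 fold of at least 1 in size with a 95% counting interval that excludes no difference, which describes 2 libraries and is no test of the conditions. With both viruses alike, 19 members were higher and 2, Stfa3 and Serpinc1, lower (5.01% and 1.55% of all genes). By name pattern, of 56 members 19 were higher and 5 lower with Tox2, 18 and 5 with GFP, and 15 and 2 with both.

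**Figure D2:**
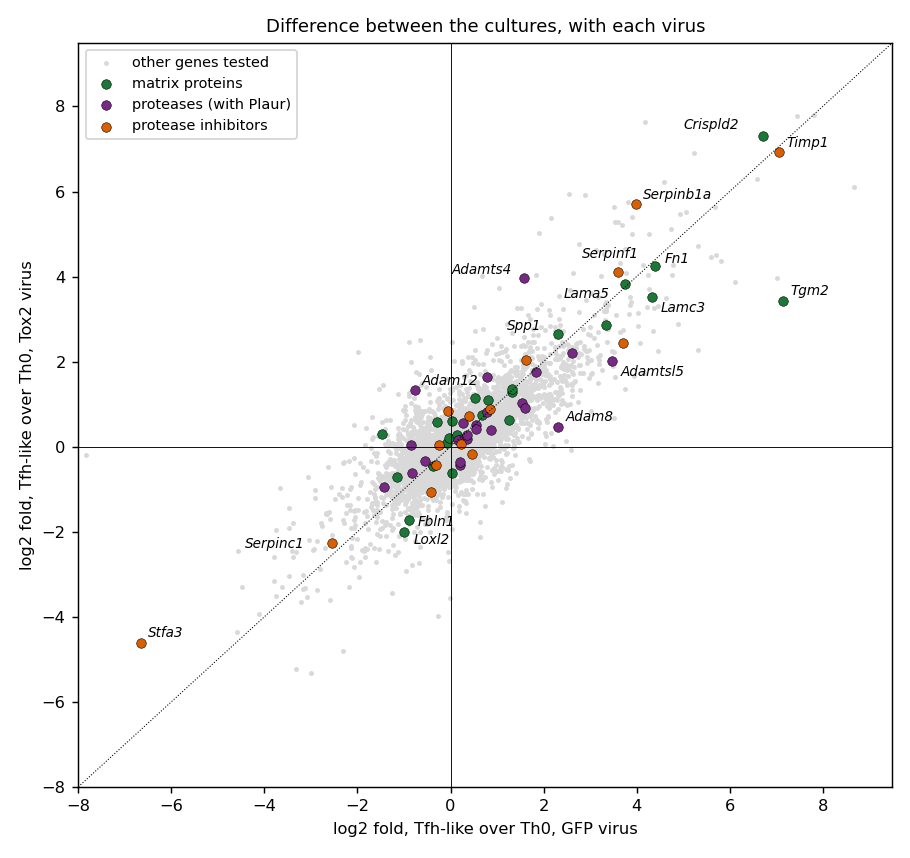
Log2 fold of the Tfh-like over the Th0 library with the Tox2 virus (vertical axis) and with the GFP virus (horizontal axis), 1 point per gene tested, members in colour and the dotted line marking equal folds. Timp1 and Crispld2 lie near the line at about 7 on both axes, Tgm2 lies below it (3.43 with Tox2, 7.16 with GFP) and Adamts4 above it (3.98 with Tox2, 1.59 with GFP).

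Among the laminins, the trimeric proteins of basement membranes, 5 of 6 rose in the Tfh-like culture, with a median log2 fold of 2.32. Of all genes 14.3% rose. Lama5, an alpha chain (chr2:180176373-180225859, minus strand, GRCm38), had 1641 counts in Tfh-like with Tox2 and 1606 with GFP, against 118 in Th0 with Tox2 and 121 with GFP. Both Tfh-like libraries stood far above both Th0 libraries, and the virus made next to no difference, so the log2 fold of 3.81 (SE 0.12, edgeR adjusted p = 3.02e-05) came with a Tox2 fold of -0.03. Lamc3, a gamma chain, had 1056 and 1107 counts in Tfh-like with Tox2 and with GFP, against 94 and 55 in Th0 (log2 fold 3.92, SE 0.20). The commonest gamma chain, Lamc1, moved less, with 1536 and 2125 counts in Tfh-like with Tox2 and GFP, against 1032 and 918 in Th0 (0.94, SE 0.16). Lamb2, a beta chain of basement membranes of muscle and kidney, had 154 and 32 counts in Tfh-like with Tox2 and GFP, against 61 and 12 in Th0 (1.41, SE 0.27). The virus separated its libraries more than the culture did, and DESeq2 did not call it for the culture (adjusted p = 0.0836, in a range of 0.00962 to 0.0836 over the alternatives). Lamb3, a beta chain of epithelial laminin, was the laminin that did not pass (log2 fold -0.42, SE 0.15).

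Of 11 genes with a collagen name 3 rose and 0 fell, where 14.3% of all genes rose and 9.96% fell. Their median log2 fold was 0.10. Both values include Col4a3bp, which is no collagen and did not pass (log2 fold 0.21). A difference between collagens and laminins was not tested. Col1a1, the main chain of fibrillar collagen I and also a fibroblast marker, had 166 and 176 counts in Tfh-like with Tox2 and GFP, against 70 and 71 in Th0 (log2 fold 1.32, SE 0.20). The 2 Tfh-like values lie above both Th0 values and the virus left them alike. Col5a1, a regulatory chain of collagen fibrils, had 75 and 90 counts in Tfh-like with Tox2 and GFP, against 35 and 52 in Th0 (0.98, SE 0.26). Col18a1, the source of endostatin, had 341 and 272 counts in Tfh-like with Tox2 and GFP, against 159 and 194 in Th0 (0.84, SE 0.19). Both lost the call with DESeq2 (adjusted p = 0.280 for Col5a1 and 0.0592 for Col18a1, against lowest values of 0.0341 and 0.0185 over the alternatives). Col5a3, the third chain of the collagen V group, did not pass for the culture (0.05, SE 0.23) and is taken up with Tox2. Its culture fold had opposite signs with the viruses, 0.58 with Tox2 (log2 counting interval 0.12 to 1.08) and -0.28 with GFP (-0.49 to -0.08).

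The singly named matrix genes other than Furin and Cst7 all rose, which is no support for the list since they were chosen on these libraries. Crispld2, a secreted protein with LCCL domains (chr8:119992438-120052793, plus strand), had 764 counts in Tfh-like with Tox2 and 1217 with GFP, against 3 in Th0 with Tox2 and 10 with GFP. It was close to silent in Th0, and its log2 fold of 7.28 (SE 0.22) was the highest among the members; with GFP the Tfh-like library had 125 times the Th0 level (log2 counting interval 6.09 to 8.03). Tgm2, the enzyme that crosslinks matrix proteins, had 2036 counts in Tfh-like with Tox2 and 4434 with GFP, against 194 in Th0 with Tox2 and 30 with GFP (4.91, SE 0.74, edgeR adjusted p = 0.00533). Fn1, fibronectin, had 199 and 429 counts in Tfh-like with Tox2 and GFP, against 9 and 19 in Th0 (4.52, SE 0.23). Spp1, osteopontin, had 325 counts in Tfh-like with Tox2 and 1366 with GFP, against 52 in Th0 with Tox2 and 283 with GFP (2.45, SE 0.14). For Spp1 the groups of the cultures nearly touch, because Tfh-like with Tox2 lay just above Th0 with GFP. Ecm1, a secreted matrix protein of T helper cells and skin, moved least, with 922 and 995 counts in Tfh-like with Tox2 and GFP, against 573 and 639 in Th0 (0.71, SE 0.10). Exons of Spp1 and of Tgm2 overlap those of another gene model over 18.8% and 13.7% of their length, and the strand setting of the counting is not given in the sources used here, so a share of these counts could belong to either model.

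Matrix genes that fell in the Tfh-like culture were Fbln1 and Loxl2. Fbln1, fibulin-1, a glycoprotein of elastic fibres and basement membranes, had 230 and 238 counts in Tfh-like with Tox2 and GFP, against 800 and 456 in Th0 (log2 fold -1.33, SE 0.20). Loxl2, a lysyl oxidase that crosslinks collagen, had 45 and 22 counts in Tfh-like with Tox2 and GFP, against 193 and 47 in Th0 (-1.65, SE 0.32). In both genes Th0 with Tox2 stood well above the other 3 libraries, and for Loxl2 the counts of Tfh-like with Tox2 and Th0 with GFP were nearly equal.

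Of the 24 proteases and receptors tested, 9 rose and 2 fell with the Tfh-like culture, where 14.3% of all genes rose and 9.96% fell. The ADAMTS family, secreted proteases of matrix proteoglycans and procollagens and their relatives without a protease domain, had 4 members that rose and 1 that fell out of 7. Adamts4, which cuts aggrecan and versican, had 90 and 36 counts in Tfh-like with Tox2 and GFP, against 4 and 11 in Th0 (log2 fold 3.0, SE 0.60). Adamtsl5, an ADAMTS-like protein, had 188 and 267 counts in Tfh-like with Tox2 and GFP, against 47 and 23 in Th0 (2.75, SE 0.36). The genes Adamts14 and Adamts3 encode enzymes that trim procollagens. Adamts14 had 141 and 122 counts in Tfh-like with Tox2 and GFP, against 30 and 19 in Th0 (2.48, SE 0.27), and Adamts3 had 116 and 165, against 58 and 57 (1.32, SE 0.24). Adamts6 fell: it had 650 and 359 counts in Tfh-like with Tox2 and GFP, against 1307 and 992 in Th0 (-1.18, SE 0.14).

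Of 9 ADAM genes tested 4 rose and 1 fell, where 14.3% of all genes rose and 9.96% fell. Adam19, a membrane protease that sheds growth factors such as neuregulin, had 2470 counts in Tfh-like with Tox2 and 3375 with GFP, against 763 in Th0 with Tox2 and 972 with GFP (log2 fold 1.79, SE 0.10). Adam8, a sheddase of leukocytes, had 70 counts in Tfh-like with Tox2 and 283 with GFP, against 52 in Th0 with Tox2 and 57 with GFP (1.5, SE 0.43, edgeR adjusted p = 0.0476). A single library, Tfh-like with GFP, held it apart, and the call was lost when TMM was computed over the tested genes only (adjusted p = 0.0567) and when the trend with gene length was removed (0.0720), in a range of 0.0229 to 0.0720 over the alternatives. Adam9 and Adam15 encode membrane proteases with integrin-binding domains. Adam9 had 352 and 386 counts in Tfh-like with Tox2 and GFP, against 280 and 215 in Th0 (0.63, SE 0.16). Adam15 had 759 and 981 counts in Tfh-like with Tox2 and GFP, against 554 and 688 in Th0 (0.53, SE 0.10), and 20.6% of its exons overlap 4731419I09Rik on the opposite strand, so a share of its counts could belong to that model. Overlaps of 3.56% to 8.25% of exon length with other models touch Adamts4, Loxl2, Lamc3 and Adam19. Neither kept its call with DESeq2 (adjusted p = 0.146 for Adam9 and 0.0684 for Adam15, against lowest values of 0.0316 and 0.0112 over the alternatives). Adam10 had 2568 and 2001 counts in Tfh-like with Tox2 and GFP, against 4082 and 3663 in Th0, and fell (-0.72, SE 0.11). Of 5 MMP genes only Mmp14, the membrane-anchored collagenase MT1-MMP, passed: it had 94 and 121 counts in Tfh-like with Tox2 and GFP, against 51 and 40 in Th0 (1.28, SE 0.27; DESeq2 adjusted p = 0.0805, in a range of 0.0155 to 0.0805 over the alternatives).

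Among the 15 members classed as inhibitors by name 7 rose, the singly named Cst7 included, and 3 fell. Of all genes 14.3% rose and 9.96% fell. Timp1, the secreted inhibitor of MMPs (chrX:20870166-20874735, plus strand), had 705 counts in Tfh-like with Tox2 and 2730 with GFP, against 4 in Th0 with Tox2 and 19 with GFP. It was all but absent from Th0 and the most abundant member in Tfh-like with GFP (log2 fold 7.26, SE 0.17, edgeR adjusted p = 3.02e-05). Timp2, by contrast, had 2217 and 1798 counts in Tfh-like with Tox2 and GFP, against 1290 and 1916 in Th0, and did not pass (0.39, SE 0.20). The Timp2 libraries of the cultures overlap, and in FPKM Timp2 exceeded Timp1 in both Th0 libraries, at 19.2 and 28.9 with Tox2 and GFP, against 0.261 and 1.26 for Timp1.

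Serpins moved in both directions, 5 of 11 upward and 2 downward, where 14.3% of all genes rose and 9.96% fell. Serpinf1, encoding the secreted anti-angiogenic factor PEDF, is counted with the inhibitors by its family name only. It had 1976 and 2614 counts in Tfh-like with Tox2 and GFP, against 118 and 221 in Th0 (log2 fold 3.84, SE 0.16). Serpinb1a, an intracellular inhibitor of neutrophil-type proteases, had 102 and 183 counts in Tfh-like with Tox2 and GFP, against 0 and 10 in Th0 (4.93, SE 0.56). Both serpins were low in both Th0 libraries. With the count of 0 set to 3 counts, the Tfh-like level of Serpinb1a with Tox2 was 35.3-fold higher than that in Th0. Set the same way, its level in Th0 was 3.44-fold lower with Tox2 than with GFP. These 2 values leave out the counting error of the other library. The log2 counting intervals reach down to 4.82 for the culture fold with Tox2 and up to -1.21 for the Tox2 fold in Th0. Serpina3g, an intracellular cathepsin inhibitor of activated T cells, also rose (50 and 28 counts in Tfh-like with Tox2 and GFP, against 11 and 8 in Th0; 2.06, SE 0.38), at a level below 5 CPM, and it is named here after its values were seen. DESeq2 did not call it (adjusted p = 0.120, in a range of 0.0102 to 0.120 over the alternatives).

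The listed clade B serpins all lie on chromosome 13 and did not move as a block. Their order is Serpinb1a, Serpinb6b after 114 kb, Serpinb9 after 24.2 kb, Serpinb6c after 862 kb and Serpinb6a after 12.2 kb. The culture log2 folds along that order were 4.93, -0.74, 0.16, -0.43 and 0.87. Serpinb6b, one of several copies related to the cathepsin G inhibitor, had 363 and 534 counts in Tfh-like with Tox2 and GFP, against 792 and 736 in Th0, and fell (SE 0.16). Serpinb6a, its near relative, had 2398 and 2155 counts in Tfh-like with Tox2 and GFP, against 1342 and 1230 in Th0, and rose (SE 0.10). Serpinb9, the granzyme B inhibitor, had 188 and 316 counts in Tfh-like with Tox2 and GFP, against 220 and 235 in Th0, and Serpinb6c at most 23 counts in any library; neither passed. Reads of such related copies can be split or lost, and 14.1% of the exons of Serpinb6a overlap Nqo2 on the other strand (470 and 588 counts in Tfh-like with Tox2 and GFP, against 190 and 234 in Th0), so these values are uncertain.

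Serpinc1, encoding antithrombin, had 43 and 45 counts in Tfh-like with Tox2 and GFP, against 221 and 281 in Th0 (log2 fold -2.45, SE 0.21). Its exons overlap those of Zbtb37 on the opposite strand over 34.4% of their length, and Zbtb37 had 183 and 148 counts in Tfh-like with Tox2 and GFP, against 292 and 230 in Th0. Stfa3, a stefin that inhibits cathepsins (chr16:36450537-36455392, minus strand), had 13 and 2 counts in Tfh-like with Tox2 and GFP, against 378 and 407 in Th0. It was the member with the strongest fall (-5.65, SE 0.43, edgeR adjusted p = 0.000483), and with GFP its level was 198-fold lower in Tfh-like (log2 counting interval -10.68 to -5.76). Stefin genes have near-identical copies, the gene length implied by the deposited FPKM for Stfa3 is 2.92 times that of its GENCODE M21 exons, and its values are therefore those of an uncertain gene model. Cst7, finally, had 1638 and 2316 counts in Tfh-like with Tox2 and GFP, against 1030 and 1803 in Th0 (0.56, SE 0.12), where Th0 with GFP lay above Tfh-like with Tox2.

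**Figure D3:**
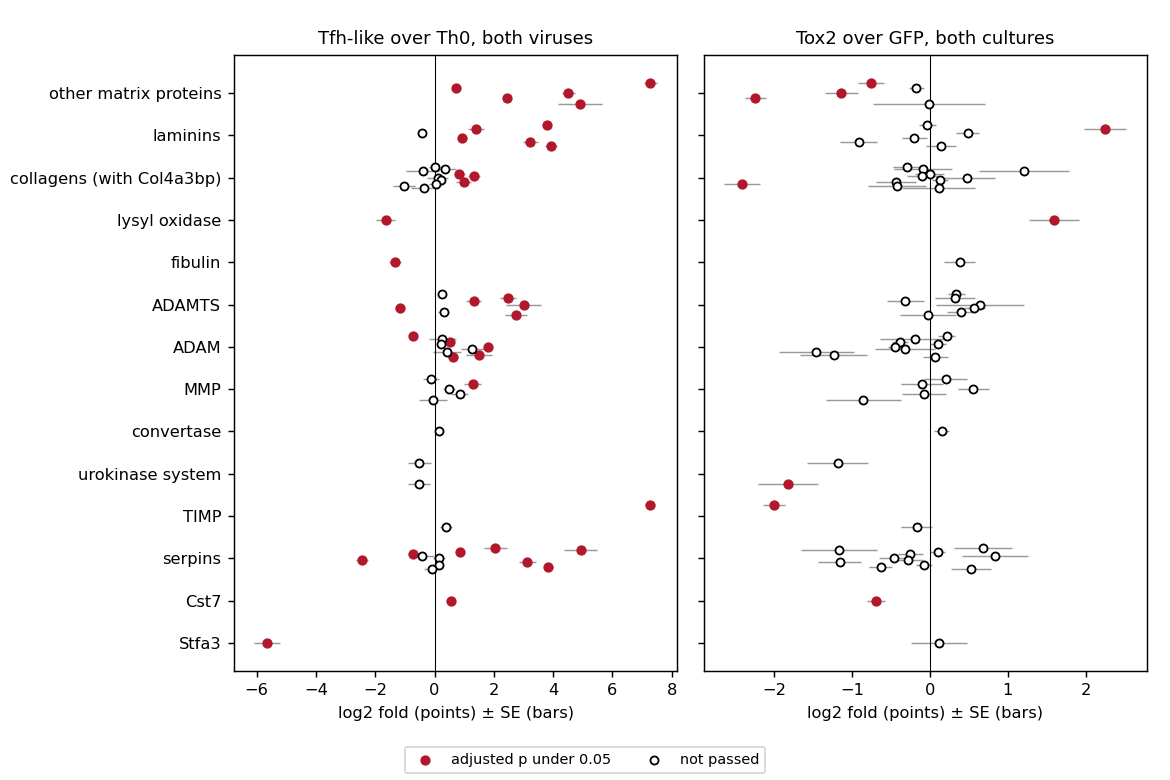
Log2 fold (points) with its standard error (bars) of each of the 63 members tested, by role, for the Tfh-like over the Th0 culture on the left and the Tox2 over the GFP virus on the right, filled where the edgeR adjusted p was under 0.05. On the left the laminins and other matrix proteins lie mostly above 0, the latter all singly named genes picked with results known. The collagens lie between -1.03 (Col6a1) and 1.32 (Col1a1). On the right 9 points are filled, 2 above 0 (Lamb2 and Loxl2) and 7 below 0.

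The second comparison was the Tox2 against the GFP virus over both cultures. Few members passed: osteopontin, Timp1, Col5a3, fibronectin, Crispld2, cystatin F and the urokinase receptor gene Plaur were lower with Tox2, and Lamb2 and Loxl2 were higher. In the same model 2 of 63 members rose and 7 fell, where 4.07% of all genes rose and 2.74% fell. By name pattern the counts were 2 and 3 of 56, and of the 7 single names, chosen with results known, 4 fell and 0 rose. The median log2 fold was -0.09 over the members and 0.00 over all genes. Set side by side in Tfh-like, 4 members were 2-fold higher and 10 lower with Tox2 than with GFP (2.86% and 1.9% of all genes). In Th0 the counts were 3 higher and 8 lower (3.18% and 1.56%). In both cultures 1 member, Lamb2, was higher and 5 were lower, namely Spp1, Timp1, Col5a3, Plaur and Adam4 (1.23% and 0.566% of all genes). By name pattern, of 56 members 4 were higher and 7 lower in Tfh-like, 2 and 7 in Th0, and 1 and 4 in both.

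**Figure D4:**
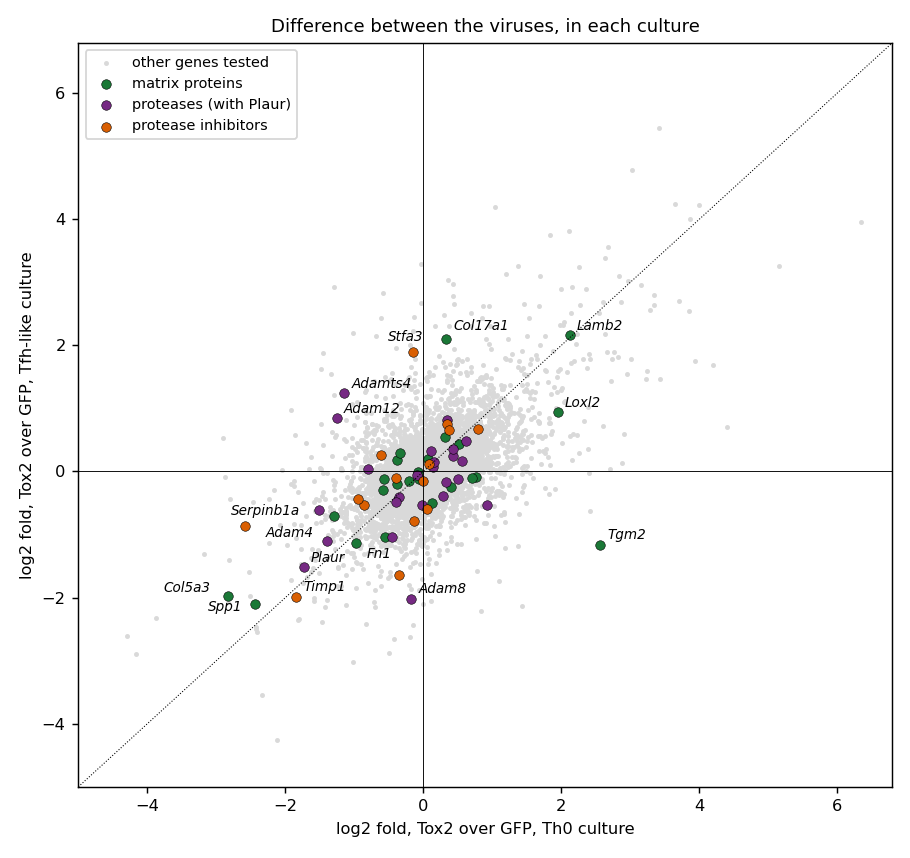
Log2 fold of the Tox2 over the GFP library in the Tfh-like culture (vertical axis) and in the Th0 culture (horizontal axis), 1 point per gene tested, members in colour and the dotted line marking equal folds. Lamb2 lies near the line at 2.16 and 2.12, Spp1, Col5a3 and Timp1 lie low on both axes, and Tgm2 lies low on the vertical and high on the horizontal axis.

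On the matrix side, Spp1 (chr5:104435118-104441050, plus strand) was lower with Tox2 in each culture by the counts given above. It was 4.31-fold lower in Tfh-like and 5.62-fold lower in Th0, and fell by 2.24 on the log2 scale over both (SE 0.14, edgeR adjusted p = 0.00197). Col5a3 (chr9:20770050-20815067, minus strand) had 93 counts in Tfh-like with Tox2 and 361 with GFP, and 64 in Th0 with Tox2 and 453 with GFP. Both GFP libraries lay above both Tox2 libraries, and the log2 fold was -2.41 (SE 0.23, edgeR adjusted p = 0.00557). No other collagen passed with Tox2, and its partner chain Col5a1 had a fold of -0.44 (SE 0.26). Fn1 fell by 1.14 (SE 0.21, adjusted p = 0.0311 by edgeR), from folds of -1.14 in Tfh-like and -0.97 in Th0, where it had under 20 counts a library. Crispld2 was just past the threshold (-0.76, SE 0.17, adjusted p = 0.0486 by edgeR) and lost the call with DESeq2 (0.153), with TMM over the tested genes only (0.0572) and with the length trend removed (0.0687), the lowest over the alternatives being 0.0345. Fn1 was also not called by DESeq2 (adjusted p = 0.0946, in a range of 0.0175 to 0.0946).

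Lamb2 (chr9:108479736-108490530, plus strand), with the counts given above, was 4.69-fold higher with Tox2 in Tfh-like and 4.92-fold higher in Th0. Its log2 fold over both was 2.25 (SE 0.27, edgeR adjusted p = 0.0102), and the Th0 library with Tox2 exceeded the Tfh-like library with GFP. Loxl2 (chr14:69609068-69695834, plus strand) was higher by 0.94 in Tfh-like and 1.95 in Th0 on the log2 scale and rose over both (1.59, SE 0.32, edgeR adjusted p = 0.0378). That call was lost with the length trend removed (log2 fold 1.55, adjusted p = 0.0663) and with DESeq2 (1.52, 0.0926), where the fold hardly moved, the lowest adjusted p over the alternatives being 0.0244. Lamb2 kept its call under every alternative run, the removal of the length trend included. Lamb2 and Loxl2 have exons of 6082 and 5405 bases in all, and the members that fell with Tox2 by edgeR ran from 888 (Timp1) to 11685 (Fn1). Across all genes the Tox2 fold in Th0 had a Spearman correlation of 0.30 with gene length, and that in Tfh-like 0.13. Genes are not independent replicates, and these correlations are a description.

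Among proteases and their receptors Plaur alone passed with edgeR. Plaur, the receptor that holds urokinase at the cell surface, had 8 counts in Tfh-like with Tox2 and 26 with GFP, and 11 in Th0 with Tox2 and 40 with GFP (log2 fold -1.82, SE 0.39, edgeR adjusted p = 0.0448). Its level was below 5 CPM, so it is named after its values were seen. The call was lost with DESeq2 (adjusted p = 0.361), with TMM over the tested genes only (0.0517) and with the length trend removed (0.0658), and the lowest over the alternatives was 0.0411. Plau, encoding urokinase itself, had 16 and 25 counts in Tfh-like with Tox2 and GFP, and 16 and 48 in Th0 (-1.19, SE 0.39, adjusted p = 0.116 by edgeR). Adam4, 2-fold lower in both pairs, rests on 8 and 19 counts in Tfh-like with Tox2 and GFP and 5 and 16 in Th0, and did not pass. No ADAMTS gene passed with edgeR, DESeq2 or limma-voom. An unadjusted edgeR p under 0.05 was found for 2 of 7, for 22 of the 63 members and for 3003 of all 10960 genes tested. Nothing is read from the ADAMTS count against that share. Adam19 (-0.44, SE 0.10, adjusted p = 0.0530 by edgeR) and Adamts6 (0.57, SE 0.14, 0.0590) came nearest to the threshold. Adam19 passed at a CPM of at least 5 (adjusted p = 0.0454), with the length trend removed (0.0480) and with limma-voom (0.0436), in a range up to 0.102 over the alternatives, while Adamts6 passed in none.

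Of the inhibitors, Timp1 and Cst7 fell with Tox2. Timp1 was 3.97-fold lower with Tox2 in Tfh-like (log2 counting interval -2.11 to -1.87) and 4.91-fold lower in Th0 (-4.31 to -0.71), where it had only 4 and 19 counts. Over both it fell by 2.0 (SE 0.14, edgeR adjusted p = 0.00257). In Tfh-like with Tox2 it still stood far above both Th0 libraries. Cst7 fell by 0.69 (SE 0.12, edgeR adjusted p = 0.0259), with folds of -0.53 in Tfh-like and -0.85 in Th0. No serpin passed with edgeR. An unadjusted edgeR p under 0.05 was found for 3 of 11, and for 3003 of all 10960 genes tested. Nothing is read from the serpin count against that share. Serpinf1 (-0.63, SE 0.15) had an adjusted p = 0.0545 by edgeR. It was called with DESeq2 (adjusted p = 0.0291) and with its size factors (0.0498), in a range up to 0.0851 over the alternatives.

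The third comparison set the Tox2 fold in the Tfh-like culture against that in Th0. With 1 library a group this difference leaves no degree of freedom for a test and was described with a counting interval. It was 2-fold or more for 9 of 63 members, with 4 higher and 5 lower in Tfh-like, where 1.77% and 1.96% of all genes were. Among the 56 by name pattern the counts were 4 and 4, the other one being Tgm2. Tgm2 (chr2:158116402-158146436, minus strand), whose 4 counts are given above, was 2.23-fold lower with Tox2 in Tfh-like and 6.26-fold higher in Th0. Its folds differed by -3.73 on the log2 scale (interval -4.27 to -3.18), so that the culture fold was 3.43 with Tox2 and 7.16 with GFP. Adam12, a membrane protease of mesenchyme, had 340 counts in Tfh-like with Tox2 and 184 with GFP, and 139 in Th0 with Tox2 and 324 with GFP. The virus had opposite signs in the 2 cultures, 0.84 in Tfh-like and -1.26 in Th0 (difference 2.10, interval 1.72 to 2.48), and neither main effect passed.

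Adam8 (difference -1.85, interval -2.50 to -1.20) was 4.14-fold lower with Tox2 in Tfh-like, while in Th0 its fold was -0.17 on the log2 scale. Adamtsl5 had a difference of -1.46 (-2.21 to -0.72) and Loxl2 of -1.01 (-1.85 to -0.17), both with the higher Tox2 fold in Th0. Adamts4 (2.39, 0.89 to 3.89) and Stfa3 (2.04, 0.44 to 3.65) had the higher Tox2 fold in Tfh-like, resting on 4 and 2 counts in their lowest libraries. Col17a1, a hemidesmosome collagen named here after its values were seen, had 24 and 4 counts in Tfh-like with Tox2 and GFP, and 20 and 15 in Th0 (1.76, 0.19 to 3.34).

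**Figure D5:**
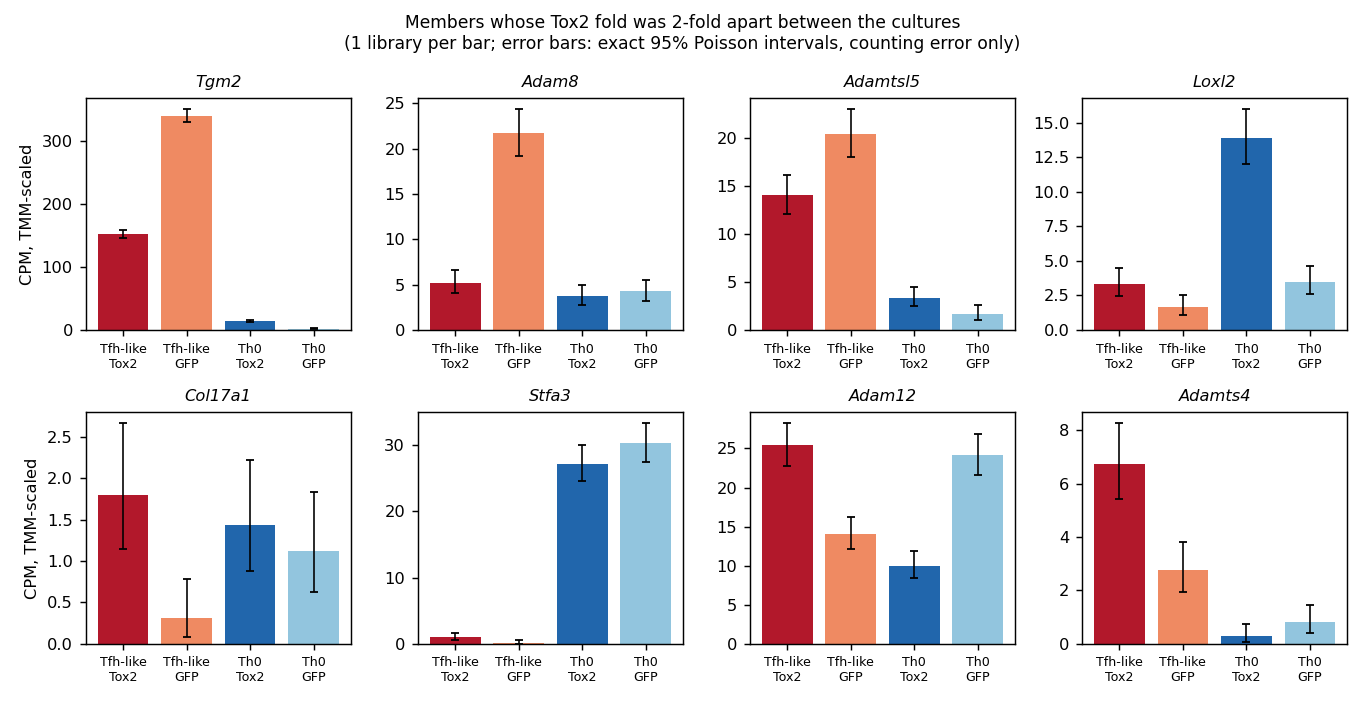
TMM-scaled CPM of 8 of the 9 members whose Tox2 fold was 2-fold apart between the cultures, 1 library per bar with an exact 95% Poisson interval for counting error only. Tgm2 is lower with Tox2 in Tfh-like and higher with it in Th0, Adam12 the reverse, and for Adam8 a single library, Tfh-like with GFP, stands above the other 3.

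Among the other genes of the network, in lists chosen with earlier results of these libraries known, the receptors for matrix had 12 of 20 tested that rose and 3 that fell with the Tfh-like culture, and 5 that rose and 2 that fell with Tox2. Over all genes 14.3% rose and 9.96% fell with the culture, and 4.07% rose and 2.74% fell with Tox2. The counts of the other lists, of 4 to 18 genes each, are given as they stand, and nothing is read from them against those shares. Sdc1, the syndecan of plasma cells, had 1132 and 1860 counts in Tfh-like with Tox2 and GFP, against 57 and 152 in Th0 (culture log2 fold 3.95, SE 0.18; Tox2 -0.97, SE 0.17). Itga3, the alpha chain of a laminin receptor, had 4174 and 8255 counts in Tfh-like with Tox2 and GFP, against 793 and 1907 in Th0 (2.30, SE 0.12; Tox2 -1.16, SE 0.11). It was thus lower with Tox2 in each culture and higher in Tfh-like with each virus. The folds of Sdc1, Spp1, Fn1, Timp1, Crispld2 and Cst7 had the same signs. For Fn1 and Crispld2 the log2 counting interval of the Tox2 fold in Th0 included no difference (-2.45 to 0.09 and -4.28 to 0.17). Both effects were read from the same 4 libraries. Itga7, another laminin receptor chain, rose with both (culture 2.20, SE 0.16; Tox2 0.86, SE 0.16). Itgb3, the beta chain that binds osteopontin and fibronectin, had 1436 and 742 counts in Tfh-like with Tox2 and GFP, against 2934 and 1200 in Th0, rising with Tox2 (1.08, SE 0.12) and falling with the Tfh-like culture (-0.82, SE 0.12). Itgb8, the beta chain that activates TGF-beta, rose with Tox2 by 2.18 (SE 0.32).

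Of 16 collagen-processing genes tested, 4 rose and 1 fell with the culture and 1 rose with Tox2. P4ha2, a prolyl hydroxylase, had 1196 and 1481 counts in Tfh-like with Tox2 and GFP, against 337 and 294 in Th0 (2.13, SE 0.14). P3h4, a partner of collagen-modifying hydroxylases, had 224 and 94 counts in Tfh-like with Tox2 and GFP, and 194 and 99 in Th0 (Tox2 fold 1.07, SE 0.19). Of 18 other matrix genes 4 rose and 1 fell with the culture, among them Tgfbi with 236 and 41 counts in Tfh-like with Tox2 and GFP, against 2 and 4 in Th0 (5.37, SE 0.63), and Lum (5.26, SE 0.33). With Tox2, Thbs1 of that list rose (1.14, SE 0.22) and Lum, also a fibroblast marker, fell by 1.35 (SE 0.28). Of 15 cathepsins and other cystatins 6 rose with the culture and none fell, led by Ctsw (2.58, SE 0.30), and Ctsl rose with Tox2 (1.05, SE 0.21). Of 9 regulators of ADAM and MMP proteases 5 rose and 1 fell with the culture and 1 fell with Tox2. Tspan5, a tetraspanin partner of ADAM10, had 1470 and 1127 counts in Tfh-like with Tox2 and GFP, against 507 and 491 in Th0 (1.42, SE 0.12), and so moved opposite to Adam10 itself. Of 4 granule genes of cytotoxic cells, Prf1, perforin, rose with the culture (3.62, SE 0.25) and Gzmb, the target of Serpinb9, fell by 3.13 with Tox2 (SE 0.47). Of 10 convertase and plasminogen genes 4 rose and 1 fell with the culture and 2 rose with Tox2, Pcsk1 in both (2.13, SE 0.30 and 1.78, SE 0.29).

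The remaining members are given by range. At 5 CPM or more, 13 genes had no call: Adam17, Adamts10, Adamtsl4, Col11a2, Col4a3bp, Furin, Lamb3, Mmp11, Mmp15, Serpinb9, Serpine2, Serpini1 and Timp2. Their culture folds lay between -0.42 (Lamb3) and 0.49 (Mmp15), and their Tox2 folds between -0.47 (Serpinb9) and 0.56 (Mmp15), on the log2 scale. Furin, for example, had 2342 and 2057 counts in Tfh-like with Tox2 and GFP, against 2176 and 1894 in Th0. A further 14 members were under 5 CPM in every library, with a highest level of 0.247 to 1.43 FPKM. Plaur and Serpina3g passed a test, as described, and Adam4, Adam33, Col17a1, Col6a1 and Plau were 2-fold apart in at least 1 pair on counts of 4 to 48. At such counts only large differences could be detected. One of them, Adam2, did not reach 1 CPM and was not tested.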

How the data were processed

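RNA-seq libraries were made from total RNA extracted with Trizol, per the labels' protocols. The deposited tables hold whole-number read counts per gene, not normalized, and FPKM computed by the authors from them, per the file headers and the values. The submitters' processing notes list, without role or order, Bowtie2, MACS2, Subread, featureCounts, edgeR and version 0.4.4 of Trim Galore, with mouse build mm10; the sources used here give neither annotation nor strand setting. The tables had been reduced: every gene reached 0.658 CPM or more in at least 2 libraries, and no gene summed to fewer than 24 counts. Columns belonging to other samples numbered 0.

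Counts were scaled by TMM over all listed genes (edgeR 4.0.16, R 4.3.3; factors 0.987 to 1.03). The 10960 genes with at least 1 CPM in 1 library were fitted with edgeR's quasi-likelihood test (culture plus virus, 4 libraries, threshold 0.05, Benjamini-Hochberg over all genes tested). Pairs of libraries were described by log2 folds with a prior count of 2 and exact 95% conditional binomial intervals, which cover counting error only, as these reads carry no molecular identifiers and are not independent molecules. Differences of folds have delta-method intervals. Ratios given as fold are of scaled counts without the prior count. The script was tested on simulated counts. DESeq2 1.42.0 and limma 3.58.1 were alternatives.

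Members and lists were chosen with earlier results of these data known. Members given with all counts have at least 5 CPM in 1 library and either passed a test or were 2-fold apart in some pair, 37 in all, of which 2 are not reported here; the others are ranges, or are said to be chosen after their values were seen. Gene coordinates come from GENCODE M21 (GRCm38) and promoters from RefSeq (GRCm38.p6).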

Additional observations from a re-analysis of the deposited data

Results flagged for a closer look

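Tgm2, the transglutaminase gene, was 2-fold apart with Tox2 in opposite directions in the cultures. It had 2036 counts in Tfh-like with Tox2 and 4434 with GFP, and 194 in Th0 with Tox2 and 30 with GFP. The log2 fold was -1.16 in Tfh-like and 2.57 in Th0, a difference of -3.73. With 1 library a group the difference was not tested.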

How the results depend on the processing

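No paired analysis was possible because each group has 1 library and the labels carry no replicate numbers. No value given for a member, and no count of members, reversed its direction under any alternative run. The Tox2 effect had 2 members that rose; it had 1 with the gene length trend removed and 1 with DESeq2. Its 7 members that fell were 3 among members matched by name pattern only, and 5 to 10 across the scalings, filters and tools. The 8 members 2-fold lower with Tox2 in Th0 were 5 at a CPM of at least 5, where fewer genes enter. The 5 members 2-fold lower in Tfh-like than in Th0 with GFP were 3 with a prior count of 10, which draws low genes together. The culture effect kept 22 (DESeq2) to 29 members that rose in the settings that change scaling, filter or tool, and 7 that fell in each of them. DESeq2 lost 11 of the members' calls that edgeR made, and the cause was not tested. Of the pairs, 8 of the members' 2-fold calls were lost with a prior count of 10, among them Adam4 with Tox2 in both cultures and Stfa3 with Tox2 in Tfh-like. Across all genes the Tox2 effect had 446 higher and 300 lower calls, against 244 and 177 with the length trend removed and 301 and 191 with DESeq2; the culture effect had 1564 and 1092, against 1058 and 551 with DESeq2. TMM over the tested genes only was chosen after seeing the data. Counting error limits the genes below 5 CPM, and a difference between replicates could not be measured for any gene.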
